A study of Homo sapiens with 12 samples.

Results

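Genes of the unfolded protein response (UPR) and the integrated stress response (ISR) were followed in HK-2 cells, an established line of human proximal tubule epithelium. The set held 37 genes taken by name from a table of 35238 genes. All 37 were found, and each was read at least 92 times in every library, so none was lost to the filter on low values. Cells of every group were given 10 nM of a short interfering RNA. In SCR cells it was scrambled, and in siB cells it was a single duplex against POLR2A, which encodes RPB1, the catalytic core of RNA polymerase II. Starting with the transfection, cells were exposed for 24 hours to the vehicle DMSO or to aristolochic acid I (AAI) at 25 µM. AAI is a toxin of plants that forms DNA adducts and injures the proximal tubule. The 4 groups, SCR DMSO, SCR AAI, siB DMSO and siB AAI, held 3 replicates each. The labels do not say whether replicates were separate cultures, so p-values measure only the spread between these libraries, which may be technical. No group lacked a transfected RNA, and 1 duplex cannot separate loss of POLR2A from an effect of that duplex alone.

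Proteins that fold poorly in the endoplasmic reticulum (ER) are sensed by PERK (gene EIF2AK3), IRE1α (ERN1) and ATF6. PERK, like GCN2 (EIF2AK4), a kinase that senses scarce amino acids, phosphorylates eIF2α. That phosphorylation slows general translation while favouring translation of ATF4, whose targets supply amino acids, and the factor CHOP (DDIT3) joins it when stress lasts. IRE1α splices the XBP1 transcript, and XBP1 and cleaved ATF6 raise ER chaperones and genes of ER-associated degradation. Proximal tubule cells make and recycle much membrane protein, and markers of ER stress are well known in toxic kidney injury. ATF4 translation and XBP1 splicing are not read by gene-level transcript counts.

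Depth ran from 15844015 to 42805294 reads per library. Levels are given in CPM (reads of a gene per 1000000 reads of its library), so a change of all transcripts together cannot be seen, and fewer cells of a type cannot be told apart from less RNA per cell. Levels are compared between libraries and not between genes. The target POLR2A ranged from 258 to 306 CPM in SCR cells and from 138 to 143 CPM in siB cells given DMSO, and from 673 to 729 CPM and 210 to 266 CPM in those given AAI. Replicates differed most within SCR DMSO, where 6 of the 37 genes lay more than 1 (log2) from the other replicates of the group in replicate 1 and also in replicate 2, against 0 to 3 genes in each library of the other groups. HSP90B1 lay at -1.90 in replicate 2 and 1.34 in replicate 1. The median gene lay at 0.38 in replicate 2 and -0.15 in replicate 1. A single transcript, AC010970.2, took from 0.189% to 10.6% of a library's reads. Of 7 epithelial markers, 6 stood at 1 CPM or more in all libraries, among them KRT8 (526 to 809 CPM) and PAX8 (199.9 to 418 CPM). Their sum ranged from 1745 to 2294 CPM in SCR cells with DMSO, 1544 to 1796 CPM in SCR cells with AAI, 1867 to 2030 CPM in siB cells with DMSO and 1352 to 1435 CPM in siB cells with AAI, where KRT19 ran from 62.4 to 102 CPM, against 247 to 291 CPM with DMSO. Of 9 proximal tubule markers only SLC5A2 and GGT1 stood at 1 CPM or more in all libraries, SLC22A6 being at 0 in 11 of 12 libraries. Summed proximal tubule markers ranged from 118 to 153 CPM in SCR DMSO, 112 to 150 CPM in SCR AAI, 170 to 194 CPM in siB DMSO and 144 to 147 CPM in siB AAI. Summed markers of leukocytes, endothelium and fibroblasts ranged from 29.6 to 55.5 CPM, 20.7 to 28.3 CPM, 31.2 to 34.4 CPM and 16.3 to 30.04 CPM in that order of groups, with CDH5 at 0 in 2 libraries and under 0.37 CPM in the rest. COL1A1 was the largest part of this sum, at 6.92 to 50.05 CPM. PTPRC (2.5 to 2.9 CPM) and PECAM1 (3.4 to 5.6 CPM) were highest in siB AAI, against at most 1.34 and 1.62 CPM in the other groups. Their part in the results was not tested.

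**Figure D1:**
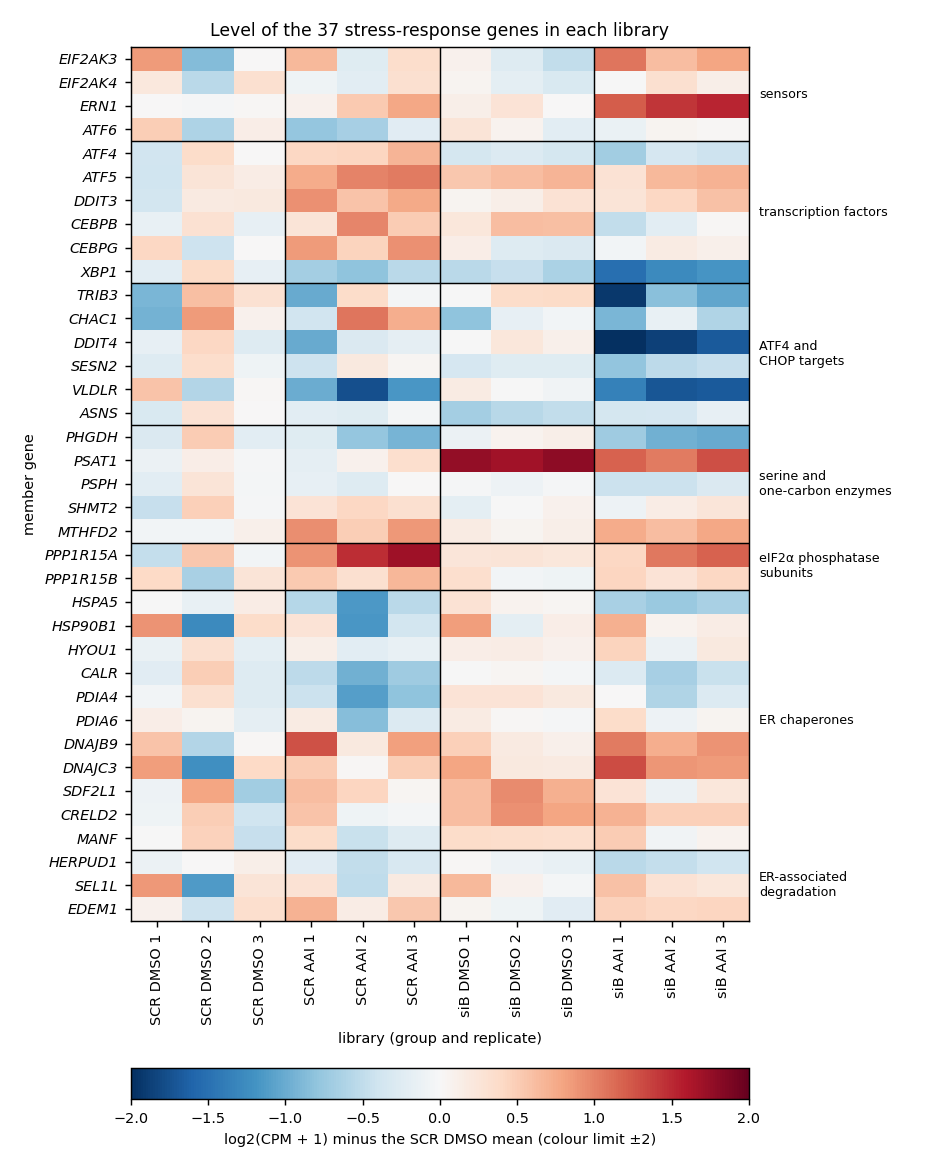
Level of each of the 37 genes (rows, grouped by role) in each of the 12 libraries (columns), as log2(CPM + 1) minus the SCR DMSO mean, blue for lower and red for higher, with colours capped at ±2. PSAT1 is red in all 6 siB libraries, DDIT4 darkest blue in siB AAI and VLDLR blue in both AAI groups, while SCR DMSO replicate 2 differs from its group in HSP90B1, SEL1L and DNAJC3.

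In SCR cells, AAI moved few of these genes past the test. PPP1R15A, ATF5 and MTHFD2 rose and VLDLR fell, while the ER chaperones did not pass. At an adjusted p under 0.05 (limma, Benjamini-Hochberg over all 14228 genes tested) 3 of 37 were higher and 1 was lower, against 8.98% and 3.36% of all genes. With a limit of 2-fold added, 1 was raised and 1 lowered, against 7.73% and 2.73%. The 3 libraries of a group all lay above the other group for 7 genes and all below for 6, against 22.2% and 11.5% of genes. The share of genes lower without overlap was above the background, and the other shares were under it. The median change over the 37 genes was 0.01 (log2) and that over all genes 0.18. Same-numbered libraries of these groups deviated together, and a fit with the replicate as a block gave 5 higher genes (CEBPG and DNAJB9 added) and 2 lower (HSPA5 added). That fit called 2086 higher and 911 lower among all 14228 genes. Without SCR DMSO replicate 2 there were 6 higher (ATF4, CEBPB and DDIT3 added) and 3 lower (ATF6 and HSPA5 added), against 1918 and 1238 of all genes. Rescaling by median-ratio size factors, which put the all-gene median at -0.01, left 0 higher and 2 lower (HSPA5 and VLDLR), against 1088 and 801 of all genes. Without SCR DMSO replicates 1 or 3 or SCR AAI replicates 2 or 3 there were 0 either way, and without SCR AAI replicate 1 PPP1R15A alone. None of the 4 calls passed under all 15 alternatives.

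In siB cells more genes passed the test with the same exposure. Genes of 2 of the ER sensors rose, and ATF4 and CHOP targets, serine enzymes, XBP1 and several chaperones fell. Of 37 genes, 7 were higher and 14 lower at an adjusted p under 0.05 (limma), against 30.4% and 21.8% of the 14928 genes tested, so that the higher genes were a smaller and the lower genes a larger share than in the background. At 2-fold 2 were raised (ERN1 and EIF2AK3) and 3 lowered (DDIT4, VLDLR and TRIB3), against 13.9% and 5.79%. Groups did not overlap for 8 higher and 14 lower genes, against 34.2% and 26.6%. The median over the 37 genes was -0.07 (log2) and that over all genes 0.10. The raised genes numbered 1 without siB DMSO replicate 3 or siB AAI replicate 1. Of the 21 genes past the test, 11 passed under all 15 alternatives, which were ERN1, EIF2AK3 and MTHFD2 among the higher and DDIT4, TRIB3, VLDLR, CEBPB, XBP1, PHGDH, PSAT1 and HSPA5 among the lower. The counts in SCR and siB cells come from separate fits, and replicates differed most within SCR DMSO. With all 4 groups fitted together, SCR cells gave 5 higher and 5 lower, against 2500 and 1284 of all genes. In that fit siB cells gave 3 higher and 9 lower, against 3053 and 2088 of all genes.

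**Figure D2:**
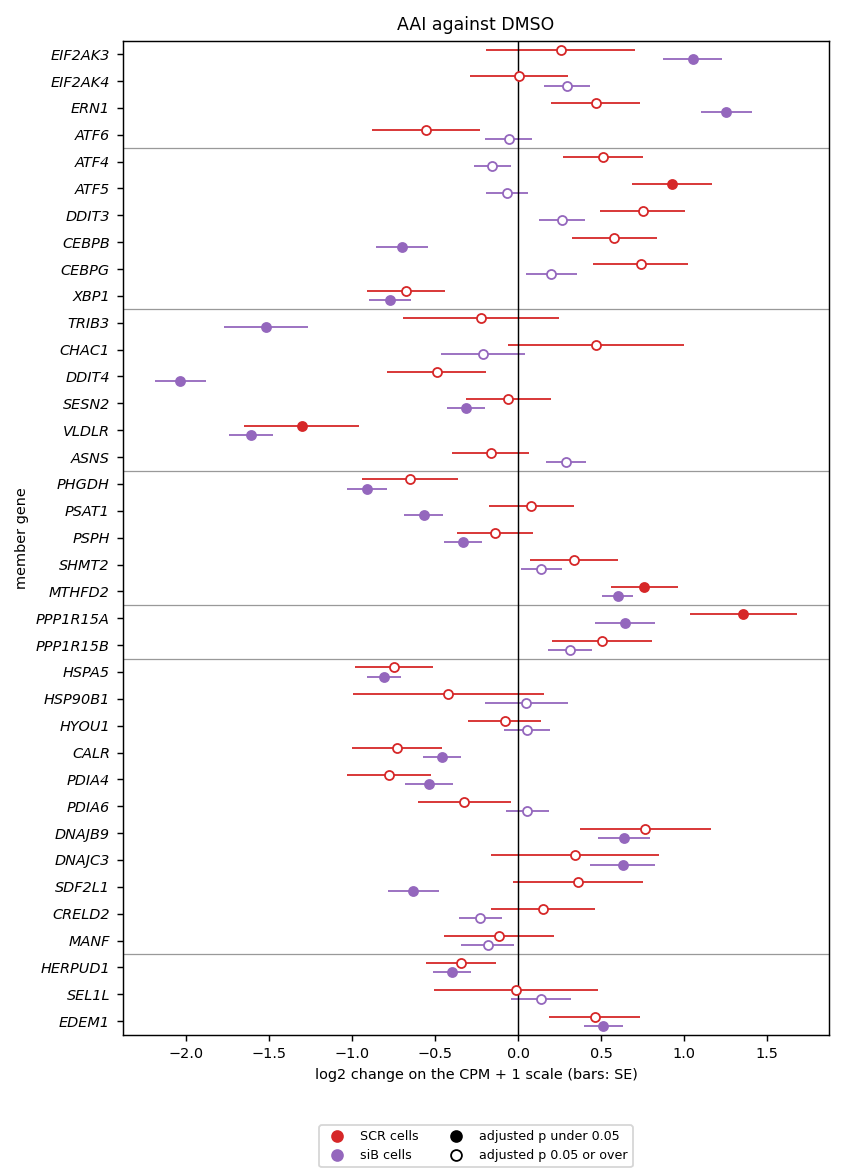
Log2 change with AAI on the CPM + 1 scale (x axis) for each of the 37 genes (y axis), in SCR cells (red) and siB cells (purple), with bars for the standard error and filled points for an adjusted p under 0.05. Filled points number 4 in SCR cells and 21 in siB cells, and DDIT4, TRIB3 and CEBPB show the widest gaps between the colours.

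The knockdown was also compared within AAI-treated cells. There the transcription factors ATF4, CEBPB, CEBPG and XBP1 and the target DDIT4 were lower in siB than in SCR cells, while ERN1 and PSAT1 were higher. That made 2 of 37 genes higher and 5 lower at an adjusted p under 0.05 (limma), against 5.49% and 3.79% of 14946 genes. At 2-fold 1 was raised and 1 lowered, against 3.04% and 0.629%. Groups did not overlap for 4 higher and 9 lower genes, against 15.1% and 15.8%. ATF4 and PSAT1 passed under all 15 alternatives, and DDIT4 under all but 1 (adjusted p 0.0512 without SCR AAI replicate 3). With the replicate block, 10 genes were higher and 10 lower, but that fit also called 2268 and 2057 of all genes where the fit without it called 820 and 567. It added ATF6, CRELD2, DNAJC3, EIF2AK3, HSP90B1, PDIA4, PDIA6 and SEL1L to the higher and ATF5, CHAC1, PPP1R15A, SESN2 and TRIB3 to the lower genes, with adjusted p from 5.63e-11 (TRIB3) to 0.0368 (SEL1L), where the unblocked fit gave 0.0507 (DNAJC3) to 0.276 (SEL1L). In it limma pooled the spread of all genes, leaving 29892 degrees of freedom for each gene where the unblocked fit used 12.6, so its p-values take the spread as known. Single libraries also moved the counts. Without SCR AAI replicate 1 there were 8 higher and 9 lower, against 1306 and 798 of all genes. There was 1 higher without SCR AAI replicates 2 or 3 or siB AAI replicates 2 or 3, and the lower genes numbered 1 without SCR AAI replicate 3, 2 without siB AAI replicates 1 or 2 and 3 without siB AAI replicate 3.

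Without AAI, the knockdown gave 0 of 37 genes past the test and 0.0% of 13606 genes. The target POLR2A itself was not called there, though its groups did not overlap (log2 -1.015, SE 0.13, limma adjusted p 0.505). The 0 therefore does not show that the knockdown changed none of these genes. At an unadjusted p under 0.05 there were 6 of the 37 and 644 of all genes. Groups did not overlap for 3 higher (PSAT1, ATF5 and CRELD2) and 2 lower genes (ASNS and XBP1), against 8.28% and 3.64%. The difference between the responses to AAI in siB and SCR cells, fitted over all 12 libraries, also gave 0 of 37 at an adjusted p under 0.05, against 1.61% of 15325 genes, with 7 of 37 and 2032 of all genes at an unadjusted p under 0.05. The 4 comparisons share groups in pairs and are given side by side.

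**Figure D3:**
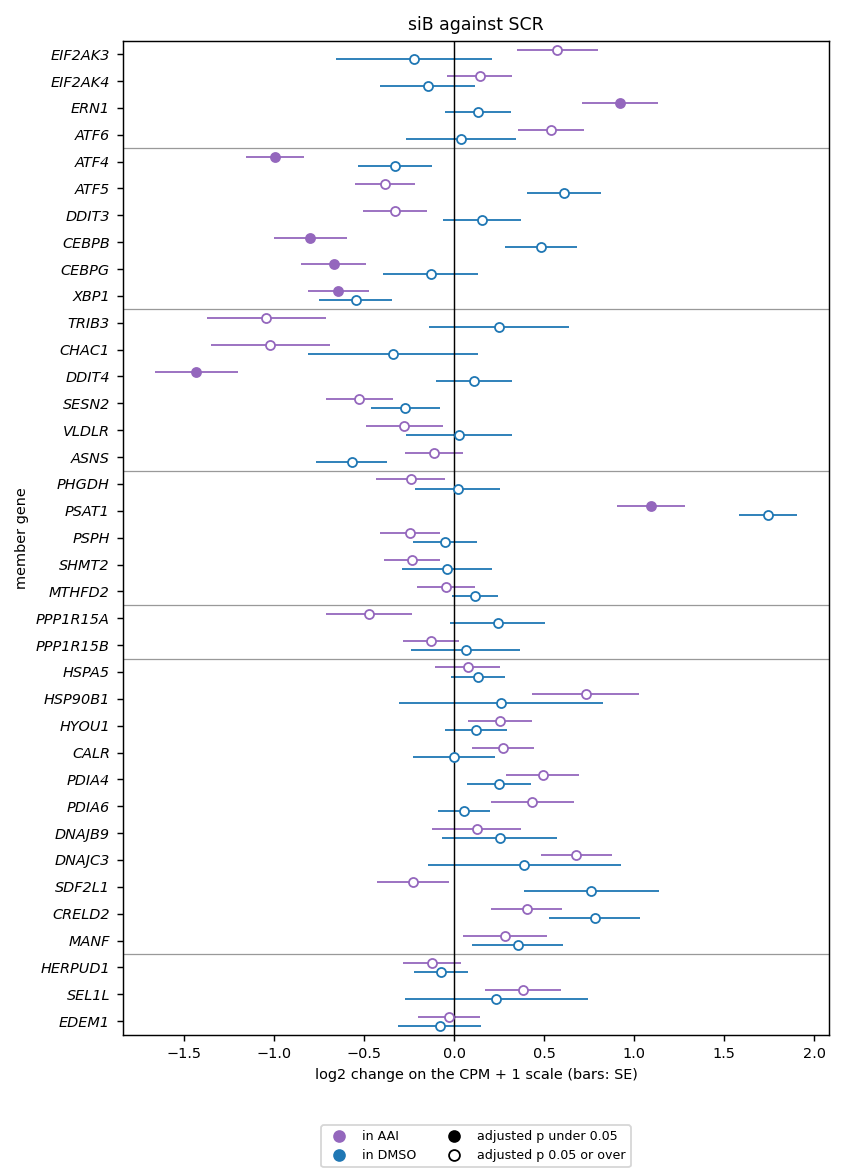
Log2 difference of siB from SCR cells on the CPM + 1 scale (x axis) for each of the 37 genes (y axis), under AAI (purple) and in DMSO (blue), with bars for the standard error and filled points for an adjusted p under 0.05. All 6 transcription factors lie left of 0 under AAI, PSAT1 lies farthest right in both, and no DMSO point is filled.

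Among the sensors, ERN1 encodes IRE1α, the kinase and RNase that splices XBP1. In SCR cells its level was 8.64, 8.48 and 8.79 CPM with DMSO and 9.28, 12.9 and 15.5 CPM with AAI. Cells with siB went from 9.45, 10.7 and 8.64 CPM to 21.3, 24.8 and 26.7 CPM. All 3 siB AAI libraries lay above the other 9. AAI raised ERN1 2.38-fold in siB cells (log2 1.25, SE 0.15, adjusted p 1.65e-04), against a value of 0.47 (SE 0.27, adjusted p 0.312) in SCR cells. Under AAI it was 0.92 (SE 0.21, adjusted p 0.0199) higher in siB than in SCR cells, with adjusted p from 7.91e-07 to 0.0839 over 15 alternatives, and over 0.05 without any 1 of SCR AAI replicates 2 and 3 and siB AAI replicates 2 and 3. The difference between the responses was 0.79 (SE 0.28, adjusted p 0.227).

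EIF2AK3, which encodes PERK, stood at 50.2, 14.5 and 27.5 CPM in SCR DMSO and at 43.4, 23.0 and 35.0 CPM in SCR AAI, and these groups overlapped. In siB cells it went from 28.9, 22.6 and 19.1 CPM with DMSO to 58.4, 42.3 and 48.1 CPM with AAI, without overlap, a 2.07-fold rise (log2 1.05, SE 0.18, adjusted p 9.99e-04). EIF2AK4, which encodes GCN2, and ATF6, the membrane-held factor that is cleaved under ER stress, passed no test as deposited. Their group means were 42.7 to 52.4 CPM and 36.4 to 56.0 CPM. ATF6 changed by -0.87 (adjusted p 0.0267) with AAI in SCR cells once SCR DMSO replicate 2 was left out, against -0.56 with it (range of adjusted p over 15 alternatives 0.0267 to 0.575).

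ATF4, the factor at the centre of the ISR, showed opposite directions by value in the 2 backgrounds, neither of which passed as deposited. It stood at 290, 487 and 378 CPM in SCR DMSO and at 505, 509 and 602 CPM in SCR AAI, against 294, 311 and 294 CPM in siB DMSO and 232, 297 and 283 CPM in siB AAI. Every SCR AAI library lay above every library of the other groups. AAI in SCR cells gave a value of 0.51 (SE 0.24, adjusted p 0.223), and 0.69 (adjusted p 0.0420) without SCR DMSO replicate 2 (over 15 alternatives p ran from 0.0420 to 0.607). In siB cells the value was -0.16 (SE 0.11, adjusted p 0.271), and the groups overlapped. The difference between the responses was -0.67 (SE 0.26, adjusted p 0.278). Under AAI, siB cells held 1.99-fold less than SCR cells (log2 -0.99, SE 0.16, adjusted p 0.00433), which passed under all 15 alternatives.

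ATF5, a related factor that ATF4 and CHOP induce, went from 40.9, 64.9 and 60.4 CPM in SCR DMSO to 91.9, 109 and 113 CPM in SCR AAI, a rise of 0.93 (log2, SE 0.24, adjusted p 0.0449). It was 79.9 to 87.3 CPM in siB DMSO and 66.8 to 88.3 CPM in siB AAI, so that in siB cells the groups overlapped. The rise in SCR cells had adjusted p over 0.05 without any 1 of the SCR AAI libraries or SCR DMSO replicates 1 and 3, and 0.180 at a log2 change of 0.73 under median-ratio scaling (range over 15 alternatives 0.00344 to 0.180). ATF5 overlaps NUP62 in the annotation, so its reads may be shared where the counting ignored strand.

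CEBPB and CEBPG are partners of ATF4 at its target genes. CEBPB stood at 105, 144 and 103 CPM in SCR DMSO and at 139, 229 and 166 CPM in SCR AAI, groups that overlapped, against 135, 179 and 177 CPM in siB DMSO and 82.7, 101 and 118 CPM in siB AAI. In siB cells AAI thus lowered it by a log2 change of -0.70 (SE 0.16, adjusted p 0.00466), and under AAI siB cells lay 0.80 below SCR cells (log2 change -0.80, SE 0.20, adjusted p 0.0289). The second of these was lost without any 1 of SCR AAI replicates 2 and 3 and siB AAI replicates 1 and 2 (range over 15 alternatives 1.05e-06 to 0.104). CEBPG differed by -0.67 (SE 0.18, adjusted p 0.0378) under AAI, from 45.7, 34.4 and 48.2 CPM in SCR AAI to 23.9, 28.0 and 26.8 CPM in siB AAI, with no overlap. That call was lost without any 1 of SCR AAI replicate 3 and siB AAI replicates 1 to 3, and with all 4 groups fitted together (adjusted p 0.0986, range over 15 alternatives 2.08e-04 to 0.146). With the replicate block, AAI in SCR cells raised CEBPG (0.74, adjusted p 0.0457, range over 15 alternatives 0.0301 to 0.402). DDIT3, which encodes CHOP, stood at 16.8, 24.9 and 25.3 CPM in SCR DMSO and at 42.5, 33.1 and 37.9 CPM in SCR AAI. These groups did not overlap, and the change of 0.75 had an adjusted p of 0.105, or 0.0354 without SCR DMSO replicate 2 (over 15 alternatives it ran from 0.0124 to 0.293). DDIT3 lies over MBD6 and MARS1 in the annotation.

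XBP1, the factor that IRE1α activates by splicing, was lowest in siB AAI. In SCR cells it stood at 74.0, 113 and 76.7 CPM with DMSO and 53.3, 49.0 and 58.9 CPM with AAI, while siB cells went from 58.8, 62.1 and 55.2 CPM to 29.6, 35.2 and 37.5 CPM. The siB AAI libraries lay below all others. AAI changed it by -0.77 (SE 0.13, adjusted p 8.82e-04) in siB cells, and by a value of -0.68 (SE 0.24, adjusted p 0.112) in SCR cells. Under AAI siB cells differed from SCR cells by -0.64 (SE 0.17, adjusted p 0.0327), which was lost without any 1 of SCR AAI replicate 3 and siB AAI replicates 1 to 3 (range over 15 alternatives 2.99e-04 to 0.124). In DMSO siB cells also lay lower without overlap, by -0.55 (SE 0.20, limma unadjusted p 0.0306), which did not pass after adjustment. The difference between the responses to AAI was -0.10 (SE 0.25, adjusted p 0.950).

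**Figure D4:**
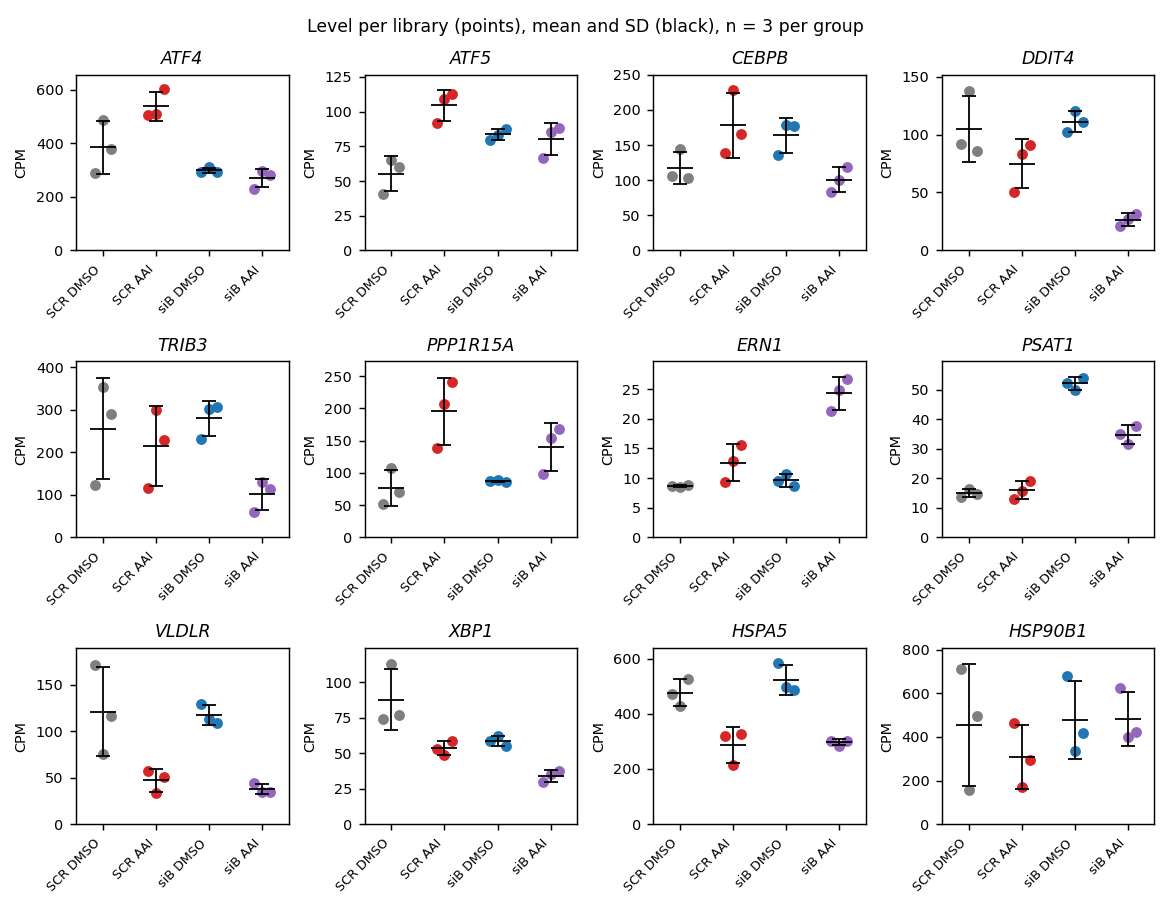
CPM per library (coloured points, 3 per group) for 12 of the 37 genes in the 4 groups, with black bars for the mean ± SD and each y axis starting at 0. By group mean DDIT4, TRIB3 and XBP1 are lowest and ERN1 highest in siB AAI, PSAT1 is higher in both siB groups, and VLDLR and HSPA5 are lower in both AAI groups.

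Of the 6 targets of ATF4 and CHOP, 0 were higher and 1 lower past the test with AAI in SCR cells, against 8.98% and 3.36% of all genes. In siB cells 0 were higher and 4 lower, against 30.4% and 21.8%. DDIT4 (REDD1), a brake on mTORC1, stood at 92.0, 137 and 85.6 CPM in SCR DMSO and at 50.6, 83.5 and 90.8 CPM in SCR AAI, which overlapped. In siB cells it went from 103, 120 and 111 CPM to 21.0, 27.5 and 31.4 CPM, a 4.10-fold fall (log2 -2.04, SE 0.15, adjusted p 1.01e-05). Under AAI siB cells held 2.70-fold less than SCR cells (log2 -1.43, SE 0.23, adjusted p 0.00426). The difference between the responses, -1.54 (SE 0.35), had an adjusted p of 0.0511, the lowest of the 37 genes. It was 0.0167 with the replicate block and under 0.05 without SCR DMSO replicate 2 or SCR AAI replicate 1 (range over 20 alternatives 0.0140 to 0.211).

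TRIB3, a pseudokinase that restrains ATF4 and AKT, stood at 124, 354 and 289 CPM in SCR DMSO and at 115, 299.9 and 228 CPM in SCR AAI, with a wide spread inside both groups. It fell 2.87-fold with AAI in siB cells (log2 -1.52, SE 0.25, adjusted p 8.88e-04), from 232, 301 and 305 CPM to 60.1, 130.4 and 113 CPM. Under AAI the difference of siB from SCR cells, -1.04 (SE 0.33), had an adjusted p of 0.0665, below 0.05 in the blocked fit and without SCR AAI replicate 1 (range over 15 alternatives 5.63e-11 to 0.244).

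VLDLR, a lipoprotein receptor induced by PERK and ATF4 signalling, fell with AAI in both backgrounds. It went from 171, 75.6 and 116 CPM to 57.3, 33.1 and 50.5 CPM in SCR cells, a 2.47-fold fall (log2 -1.30, SE 0.35, adjusted p 0.0466), and from 129, 114 and 109 CPM to 44.3, 34.4 and 34.9 CPM in siB cells, a 3.05-fold fall (log2 -1.61, SE 0.13, adjusted p 1.72e-05). The call in SCR cells was lost without any 1 of the SCR AAI libraries or SCR DMSO replicates 1 and 3 (range over 15 alternatives 0.00182 to 0.162). SESN2 (sestrin 2), a stress-induced inhibitor of mTORC1, fell by 0.32 on the log2 scale in siB cells (log2 -0.32, SE 0.12, adjusted p 0.0458), lost in 4 of the fits without a library (range over 15 alternatives 0.0234 to 0.243). CHAC1, which degrades glutathione, and ASNS, asparagine synthetase, passed no test as deposited. CHAC1 ran from 5.68 to 22.2 CPM inside SCR DMSO alone. ASNS had values of -0.17 (SE 0.23, adjusted p 0.683) with AAI in SCR cells and of 0.29 (SE 0.12, adjusted p 0.0748) in siB cells. In DMSO it was lower in siB than in SCR cells without overlap (log2 -0.57, SE 0.20, limma unadjusted p 0.0248), and did not pass after adjustment.

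Of the 5 serine and one-carbon enzymes, PSAT1, the aminotransferase of serine synthesis, separated the siRNA groups. It stood at 13.7, 16.4 and 14.6 CPM in SCR DMSO and at 13.0, 15.8 and 19.1 CPM in SCR AAI, against 52.4, 49.9 and 54.0 CPM in siB DMSO and 35.0, 31.6 and 37.8 CPM in siB AAI. All 6 siB libraries lay above all 6 SCR libraries. In DMSO the difference was 1.74 (log2, SE 0.16), a 3.35-fold higher level with an adjusted p of 0.257, which ranked 1 among the 13606 genes tested in that comparison. It passed in the fit over all 4 groups alone (adjusted p 0.00376, range over 15 alternatives 0.00376 to 1.0). Under AAI it was 1.09 (SE 0.19, adjusted p 0.00549), and passed under all 15 alternatives. Within siB cells AAI lowered PSAT1 (log2 -0.57, SE 0.12, adjusted p 0.00313), whereas SCR cells gave 0.08 (SE 0.25, adjusted p 0.870), and the difference between the responses had an adjusted p of 0.247.

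PHGDH, which commits glycolytic carbon to serine, passed no test between siRNA groups, with 0.02 (SE 0.23, adjusted p 1.0) in DMSO and -0.24 (SE 0.19, adjusted p 0.457) under AAI. It fell with AAI in siB cells (log2 -0.91, SE 0.12, adjusted p 2.19e-04), from 192 to 226 CPM down to 104 to 128 CPM, and had a value of -0.65 (adjusted p 0.197) in SCR cells. PSPH, the last enzyme of serine synthesis, fell in siB cells (log2 -0.33, SE 0.12, adjusted p 0.0367, range over 15 alternatives 0.0124 to 0.127, lost in 5 of the fits without a library). MTHFD2, the mitochondrial folate enzyme that ATF4 induces, rose with AAI in both backgrounds. It went from 139.6, 139.9 and 155 CPM to 276, 203 and 265 CPM in SCR cells (0.76, SE 0.20, adjusted p 0.0481, range over 15 alternatives 0.00186 to 0.192) and from 162, 150.2 and 158 CPM to 244, 223 and 247 CPM in siB cells (0.60, SE 0.10, adjusted p 7.05e-04). The first of these was lost without any 1 of the SCR AAI libraries or SCR DMSO replicates 1 and 3. It had an adjusted p of 0.182 under median-ratio scaling, and passed in 4 of the 15 alternatives. SHMT2, the mitochondrial serine hydroxymethyltransferase, passed no test, with group means of 235 to 305 CPM.

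PPP1R15A (GADD34) and PPP1R15B (CReP) are the subunits that direct a phosphatase to eIF2α, the first induced by stress and the second constitutive. PPP1R15A had the largest rise with AAI in SCR cells among the 37 genes, from 52.4, 108 and 70.5 CPM to 138, 207 and 241 CPM, 2.56-fold (log2 1.36, SE 0.32, adjusted p 0.0318). In siB cells it went from 86.9, 88.3 and 86.4 CPM to 98.1, 155 and 168 CPM (0.64, SE 0.18, adjusted p 0.0144). Neither pair of groups overlapped. The rise in SCR cells was lost without SCR DMSO replicates 1 or 3 or SCR AAI replicates 2 or 3, and had an adjusted p of 0.0910 under median-ratio scaling (range over 15 alternatives 0.00123 to 0.139). In siB cells the rise was lost without siB AAI replicates 2 or 3 and with all 4 groups fitted together (range over 15 alternatives 2.51e-04 to 0.103). PPP1R15B passed no test as deposited, with 0.50 (SE 0.30, adjusted p 0.329) in SCR cells and 0.31 (SE 0.13, adjusted p 0.0736) in siB cells, where it passed without siB DMSO replicate 1 (range over 15 alternatives 0.00436 to 0.353).

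The promoter of PPP1R15A held a cAMP response element (CRE, TGACGTCA), a site that ATF family factors bind, and that of CEBPG a C/EBP-ATF response element (CARE, TGATGCAA), the site of ATF4 with its C/EBP partners. Promoters were RefSeq windows on GRCh38.p14 from 250 bases before to 50 after the start, searched on both strands. A window was found for 35 of the 37 genes, and not for PSPH and SHMT2. A gene counted as holding an element when any of its windows did. CRE was in 2.25% of all 27305 genes with a window and in 1 of the 35 (2.86%). TGATGCAA was in 1.08% of all genes and in 4 of the 35 (CEBPG, CHAC1, PPP1R15B and HERPUD1), and its variant TGATGAAA in 1.37% of all genes and, of the 35, in ASNS alone. Both are shown because PPP1R15A rose with AAI in SCR cells and CEBPG was lower in siB than in SCR cells under AAI, with the match in capitals, PPP1R15A at chr19:48872171-48872470 (plus strand) and CEBPG at chr19:33373863-33374162 (plus strand), each read 5′ to 3′.
PPP1R15A: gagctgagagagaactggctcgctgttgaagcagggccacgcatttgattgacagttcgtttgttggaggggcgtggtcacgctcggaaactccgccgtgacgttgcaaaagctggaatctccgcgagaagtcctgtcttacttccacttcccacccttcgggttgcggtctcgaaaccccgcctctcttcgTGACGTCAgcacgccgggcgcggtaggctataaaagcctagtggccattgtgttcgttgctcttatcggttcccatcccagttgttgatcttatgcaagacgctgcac
CEBPG: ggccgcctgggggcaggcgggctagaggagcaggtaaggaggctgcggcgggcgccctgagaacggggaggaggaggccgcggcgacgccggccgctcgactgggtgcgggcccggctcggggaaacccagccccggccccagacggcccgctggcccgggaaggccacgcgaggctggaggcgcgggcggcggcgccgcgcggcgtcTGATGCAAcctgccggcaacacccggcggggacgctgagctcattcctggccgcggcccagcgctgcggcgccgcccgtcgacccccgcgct
Of the 5 genes with a CARE match, 0 passed the test with AAI in SCR cells, and in siB cells HERPUD1 alone passed, as a fall. Among all genes, 8.98% rose and 3.36% fell in SCR cells, and 30.4% and 21.8% in siB cells.

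Of the 11 ER chaperones, 7 were lower by value and 0 passed with AAI in SCR cells, while 4 fell and 2 rose in siB cells. Among all genes, 3.36% fell and 8.98% rose past the test in SCR cells, and 21.8% and 30.4% in siB cells. HSPA5, which encodes BiP, the chaperone that holds the sensors inactive, went from 473, 429 and 526 CPM to 319, 213 and 328 CPM in SCR cells, and from 583, 497 and 486 CPM to 303, 285 and 302 CPM in siB cells. Neither pair of groups overlapped. The fall in siB cells was 1.75-fold (log2 -0.81, SE 0.10, adjusted p 1.92e-04) and passed under all 15 alternatives. In SCR cells a similar value (log2 -0.75, SE 0.23) had an adjusted p of 0.0792, of 0.0342 with the replicate block and of 0.0392 under median-ratio scaling (range over 15 alternatives 0.00714 to 0.236). Between the backgrounds HSPA5 differed by 0.07 (SE 0.18, adjusted p 0.839) under AAI.

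CALR (calreticulin), a lectin chaperone, went from 876, 1451 and 861 CPM to 718, 529 and 630.0 CPM in SCR cells (log2 -0.73, SE 0.27, adjusted p 0.127), with no overlap. In siB cells it fell (log2 -0.46, SE 0.11, adjusted p 0.00772), from 1026, 1062 and 1005 CPM to 852, 651 and 758 CPM. PDIA4, a disulfide isomerase, fell in siB cells (log2 -0.54, SE 0.14, adjusted p 0.0109) and had -0.78 (SE 0.25, adjusted p 0.0901) in SCR cells. SDF2L1, a partner of ER J-domain proteins, fell in siB cells (log2 -0.63, SE 0.15, adjusted p 0.00728), from 35.6 to 44.96 CPM down to 20.8 to 27.9 CPM, and in SCR cells had 0.36 (SE 0.39, adjusted p 0.596). In the fit over all 4 groups CALR, PDIA4 and SDF2L1 missed the threshold in siB cells, with adjusted p of 0.107, 0.0671 and 0.145 (ranges over 15 alternatives 0.00208 to 0.107, 0.00177 to 0.0671 and 0.00224 to 0.145). None of the 3 was lost in siB cells by leaving out a library. In SCR cells the fit over all 4 groups put CALR and PDIA4 past the threshold, with adjusted p of 0.0205 and 0.0169. Their ranges there over 15 alternatives were 0.0205 to 0.323 and 0.0169 to 0.265.

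The J-domain proteins DNAJB9 (ERdj4) and DNAJC3 (p58IPK), cofactors of BiP, went the other way. In siB cells DNAJB9 rose from 19.0, 15.3 and 14.4 CPM to 28.7, 22.8 and 25.8 CPM (0.64, SE 0.16, adjusted p 0.00747), and DNAJC3 from 38.2, 24.9 and 24.4 CPM to 54.8, 40.8 and 39.9 CPM (0.63, SE 0.20, adjusted p 0.0229). Both missed the threshold in the fit over all 4 groups, with adjusted p of 0.139 and 0.281 (ranges over 15 alternatives 0.00274 to 0.139 and 0.00148 to 0.281), and DNAJC3 also without any 1 of siB DMSO replicates 2 and 3 and siB AAI replicate 1. In SCR cells DNAJB9 had 0.77 (SE 0.39, adjusted p 0.261), and 0.0456 with the replicate block (range over 15 alternatives 0.0456 to 0.571).

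The remaining chaperones passed no test as deposited. HSP90B1 (GRP94), the ER member of the HSP90 family, showed how far single libraries could differ, with 710, 158 and 494 CPM in SCR DMSO, beside 462, 169 and 295 CPM in SCR AAI. Its change in SCR cells was -0.42 (SE 0.58, adjusted p 0.674), and -1.05 (SE 0.35, adjusted p 0.0521) without SCR DMSO replicate 2. Under AAI it was 0.73 higher by value in siB cells (SE 0.30, adjusted p 0.143), as were 10 of the 11 chaperones, of which 0 passed (lowest adjusted p 0.0507, for DNAJC3). In DMSO 10 of the 11 were also higher by value in siB cells, and 0 passed. The median over the 11 was 0.28 (log2) under AAI and 0.25 in DMSO, against 0.002 and 0.06 over all genes. With the replicate block 5 chaperones were higher in siB cells under AAI: HSP90B1, CRELD2, DNAJC3, PDIA4 and PDIA6. That fit called 2268 of all 14946 genes higher, and its p-values take the spread as known. HYOU1, PDIA6, CRELD2 and MANF had changes with AAI from -0.32 to 0.15 in SCR cells and from -0.23 to 0.05 in siB cells, where MANF passed only without siB AAI replicate 1.

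Many chaperone promoters hold the ER stress response element (ERSE, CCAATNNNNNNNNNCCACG), the site where ATF6 acts with the factor NF-Y, or its shorter form ERSE-II (ATTGGNCCACG). ERSE was found in 0.0916% of all 27305 genes with a window and in 6 of the 35 (XBP1, HSPA5, HSP90B1, CALR, PDIA6 and CRELD2), and ERSE-II in 0.0696% and in 3 (HYOU1, SDF2L1 and HERPUD1). The XBP1 site known as the UPR element (TGACGTGG) was in 0.927% of all genes and, of the 35, in HYOU1 alone, where it overlaps an ERSE-II match. The windows below hold an ERSE and belong to genes that fell with AAI in siB cells. They are HSPA5 at chr9:125241294-125241593 (minus strand), CALR at chr19:12938359-12938658 (plus strand) and XBP1 at chr22:28800520-28800819 (minus strand), read 5′ to 3′ along the gene with the match in capitals. In CALR the match lies on the opposite strand, so its letters read as the reverse complement.
HSPA5: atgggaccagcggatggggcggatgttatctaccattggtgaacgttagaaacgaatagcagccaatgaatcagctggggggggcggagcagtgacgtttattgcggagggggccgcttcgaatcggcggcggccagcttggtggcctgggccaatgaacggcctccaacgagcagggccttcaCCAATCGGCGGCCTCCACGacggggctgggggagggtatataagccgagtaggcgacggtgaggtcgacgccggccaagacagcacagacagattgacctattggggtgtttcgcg
CALR: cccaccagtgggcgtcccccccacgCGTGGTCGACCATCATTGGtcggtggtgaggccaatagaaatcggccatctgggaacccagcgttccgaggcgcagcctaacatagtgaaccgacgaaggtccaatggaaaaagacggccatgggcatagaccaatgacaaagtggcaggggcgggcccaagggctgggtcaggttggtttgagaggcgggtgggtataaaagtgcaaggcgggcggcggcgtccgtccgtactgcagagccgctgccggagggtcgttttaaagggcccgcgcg
XBP1: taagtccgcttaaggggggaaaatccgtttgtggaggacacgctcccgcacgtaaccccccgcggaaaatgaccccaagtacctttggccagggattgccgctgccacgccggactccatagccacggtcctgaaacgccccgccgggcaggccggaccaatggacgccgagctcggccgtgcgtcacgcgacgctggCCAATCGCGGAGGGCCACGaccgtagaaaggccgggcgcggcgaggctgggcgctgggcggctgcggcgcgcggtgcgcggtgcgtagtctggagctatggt
The ERSE match began 66 bases before the start in HSPA5, 225 in CALR and 52 in XBP1. Of the 9 genes with ERSE or ERSE-II, 7 were lower by value with AAI in SCR cells and 0 passed the test. In siB cells 6 were lower by value, 9 under median-ratio scaling, and 5 fell past the test under both scalings (XBP1, HSPA5, CALR, SDF2L1 and HERPUD1), while 0 rose. The other 28 genes gave 9 falls and 7 rises in siB cells, and of all genes 21.8% were lower and 30.4% higher. HSP90B1, PDIA6, CRELD2 and HYOU1, which also hold ERSE or ERSE-II, did not pass there (log2 0.05, 0.05, -0.23 and 0.05). A part of the elements in these changes was not tested. These matches describe letters in a window and not factor binding, and genes of this set were chosen for the pathway that the elements serve.

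Of the ER-associated degradation genes, HERPUD1, which helps assemble the ubiquitin ligase complex, fell with AAI in siB cells, from 51.0, 46.8 and 45.3 CPM to 34.3, 35.6 and 37.9 CPM (log2 -0.40, SE 0.12, adjusted p 0.0165, range over 15 alternatives 0.00500 to 0.0573, lost without siB DMSO replicate 2). EDEM1, which hands misfolded glycoproteins to that route, rose there from 44.8, 40.4 and 36.7 CPM to 59.4, 57.3 and 58.0 CPM (0.51, SE 0.12, adjusted p 0.00508, and 0.0725 with all 4 groups fitted together, range over 15 alternatives 0.00200 to 0.0725). In SCR cells HERPUD1 had -0.34 (SE 0.21, adjusted p 0.334), with no overlap between groups, and EDEM1 0.46 (SE 0.27, adjusted p 0.326). SEL1L, the scaffold of the ligase, passed no test as deposited, and ran from 32.5 to 135 CPM inside SCR DMSO.

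By value the responses to AAI differed most between the backgrounds for DDIT4, TRIB3 and CEBPB. CEBPB gave -1.28 (SE 0.31, adjusted p 0.0647) for the response in siB cells minus that in SCR cells, and ATF5 -0.99 (SE 0.27, adjusted p 0.0967). TRIB3 gave -1.29 (SE 0.60, adjusted p 0.389). With the replicate block 4 genes passed, ATF5 at 0.0278, CEBPB and DDIT4 at 0.0167 and TRIB3 at 0.0331. That fit called 287 higher and 102 lower among all 15325 genes. Without SCR DMSO replicate 2 there were 5, which were ATF4, ATF5, CEBPB, DDIT4 and SDF2L1, all with a smaller or more negative response in siB cells. Of all genes 498 were then higher and 512 lower. Over 20 alternatives adjusted p ranged from 0.0167 to 0.219 for CEBPB, 0.0236 to 0.318 for ATF5, 0.0342 to 0.647 for ATF4, 0.0235 to 0.628 for SDF2L1 and 0.0331 to 0.668 for TRIB3. All 4 sensors had a more positive response by value in siB cells, and all 6 transcription factors a more negative one, with none past the test as deposited (XBP1 ran from -0.29 to 0.01 over 20 alternatives).

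Other genes of both pathways, listed apart from the 37, gave the setting. Of 33 further ISR genes tested (35 listed), 1 rose and 1 fell past the test with AAI in SCR cells, 8 rose and 10 fell in siB cells, and 2 were higher and 4 lower in siB than in SCR cells under AAI. Of 54 further UPR genes, 1 rose and 3 fell in SCR cells, 11 rose and 10 fell in siB cells, and 1 was higher and 0 lower between siB and SCR cells under AAI. In DMSO 0 of either list passed. Of all genes, 8.98% were higher and 3.36% lower in SCR cells, 30.4% and 21.8% in siB cells, and 5.49% and 3.79% between siB and SCR cells with AAI. The counts of ISR genes lower in siB cells and of ISR genes lower between siB and SCR cells were above those shares. ISR genes higher between siB and SCR cells (2 of 33) and UPR genes lower in SCR cells (3 of 54) lay close to the shares, on few genes. The other counts were under them. ATF3, a stress factor downstream of ATF4 and p53, rose in both backgrounds, from 24.02 ± 1.31 CPM (SD, n = 3) to 70.8 ± 8.75 CPM in SCR cells (log2 1.52, SE 0.21, adjusted p 0.00317, limma) and from 23.7 ± 1.68 CPM to 102 ± 18.4 CPM in siB cells (log2 2.05, SE 0.15, adjusted p 7.67e-06).

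KDELR3, a receptor that returns chaperones to the ER, fell from 35.04 ± 4.34 CPM to 7.58 ± 2.99 CPM in SCR cells and from 31.5 ± 2.36 CPM to 10.1 ± 3.07 CPM in siB cells (log2 -2.12 and -1.59, limma adjusted p 0.00405 and 1.83e-04). ATF6B, a relative of ATF6, fell in SCR cells from 97.6 ± 4.30 CPM to 33.9 ± 5.40 CPM (log2 -1.51, adjusted p 0.00324) and in siB cells from 94.2 ± 4.02 CPM to 36.2 ± 2.39 CPM (log2 -1.36, adjusted p 1.48e-05). CBS, which makes cystathionine, fell in both (log2 -1.94 and -1.51, adjusted p 0.00839 and 5.67e-05), but may share reads with a near-identical copy and is uncertain. In siB cells CREBRF (log2 1.37, adjusted p 8.14e-04) and EDEM3 (log2 1.35, adjusted p 0.00207) rose at least 2-fold, and JDP2, a repressor that binds AP-1 and ATF sites, fell (log2 -1.68, adjusted p 3.67e-05). In SCR cells these 3 genes had values of 0.39, 0.97 and -0.78, with adjusted p of 0.700, 0.263 and 0.149. Under AAI, siB cells held less CEBPD (75.5 ± 8.34 CPM in SCR and 31.1 ± 3.51 CPM in siB, log2 -1.25, adjusted p 0.00166) and JDP2 (12.1 to 15.9 and 4.61 to 5.95 CPM, log2 -1.25, adjusted p 0.00436), and more ERO1B, an ER oxidase (8.30 ± 3.18 and 18.3 ± 6.09 CPM, log2 1.07, adjusted p 0.0359).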

How the data were processed

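The authors aligned paired-end reads to hg38, summarised them by gene in BioJupies with the UCSC annotation of that build, and compared pairs of groups with limma. The aligner and the use of strand are not given in the sources used here. They deposited log10 values, which were log10(CPM + 1): 10 raised to the value, minus 1, summed to 1000000 per library and was a whole multiple of 1 read in 100% of values (tolerance 0.1 read). A count of 0 allows up to 3 reads, 0.0701 to 0.189 CPM by library, for counting error only. Group and replicate came from sample titles, since a treatment label read DMSO for every sample.

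The test was limma 3.58.1 in R 4.3.3 (lmFit, eBayes with trend) on log2(CPM + 1), each pair of groups alone, over genes at 1 CPM or more in at least 3 libraries fitted, with Benjamini-Hochberg correction, and checked on simulated data. Fold changes are on that scale, which understates changes of low genes. The interaction used all 12 libraries. The genes, lists and tests were chosen with earlier results of these data known. All 37 genes are named, and of further pathway genes up to 3 a direction and comparison with the largest change among those past 2-fold.

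Each library was left out in turn (over the genes tested with all). Further alternatives were median-ratio size factors, CPM without AC010970.2, 0.1 as pseudocount, no filter on low genes or a filter at a mean CPM of 5, all 4 groups fitted together, the replicate as a block, voom on recovered reads, no trend and no fold limit. Pairing was checked over 15325 genes by correlating how libraries of 1 number deviated from the means of their groups. The correlations were 0.422, 0.473 and 0.338 for SCR AAI with SCR DMSO and 0.614, 0.318 and 0.292 for siB AAI with SCR AAI, taken as paired, though the labels name no shared batch. In GENCODE 44, 7 of the 37 genes overlap a coding gene (ATF5, DDIT3, SHMT2, MTHFD2, HSP90B1, PDIA6 and CRELD2), so reads may be shared where strand was ignored.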

Additional observations from a re-analysis of the deposited data

How the results depend on the processing

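No call among the 37 genes changed direction. Values that passed no test could change sign, such as DNAJC3 with AAI in SCR cells (0.34, and -0.27 to 0.76 over 15 alternatives). Of the gene-level values under alternatives, 2818 kept their side of the threshold, 57 gained a call and 85 lost one. Counts over all genes moved too, from 501 to 2500 higher and 118 to 1284 lower with AAI in SCR cells. With AAI in SCR cells (main 3 higher and 1 lower, 1 raised and 1 lowered at 2-fold), the counts moved to 5 higher and 5 lower with all 4 groups in the fit, to 5 and 2 with the replicate block, to 0 and 2 with median-ratio size factors, when 0 were raised, to 1 higher and 0 lower without the trend or with voom, when 0 were lowered at 2-fold, and to 2 higher with a pseudocount of 0.1. With no filter or a mean CPM of at least 5 they were 0 and 0, with 0 raised and 0 lowered, and without a fold limit 3 were raised. In siB cells (7 higher and 14 lower) all 4 groups in the fit gave 3 higher and 9 lower, median-ratio size factors 1 raised, and no fold limit 7 raised and 14 lowered. The replicate numbers did not pair there (correlations 0.21, 0.0259 and 0.195), and the block gave 8 higher (PPP1R15B added) and 14 lower. For siB against SCR with AAI (2 and 5), the block gave 10 and 10, with 3 lowered at 2-fold, no filter 3 lower, and CPM without AC010970.2 or median-ratio size factors 3 higher, the former with 2 lowered. Without a fold limit 2 were raised and 5 lowered. In DMSO (0 and 0), all 4 groups in the fit gave 1 higher gene, raised (PSAT1), and the block 0 (correlations 0.726, 0.587 and -0.193, not paired). For the interaction (0) the block gave 4 lower. Beside these and the genes named with each comparison, the block changed no call among the 37.

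Leaving out each library in turn gave, with AAI in SCR cells, 0 to 6 higher, 0 to 3 lower, 0 to 2 raised and 0 to 1 lowered. It gave 6 to 10 higher, 11 to 14 lower, 1 to 2 raised and 3 to 4 lowered in siB cells, and 1 to 8 higher, 1 to 9 lower, 1 to 2 raised and 0 to 4 lowered for siB against SCR with AAI. The interaction had 0 to 5 lower. Where a group was down to 2 libraries, the spread rests on the rest of the fit. With 3 libraries a group, changes of the size most of these genes show pass or miss with single libraries, and a miss does not show that a gene did not change. Each gene had at least 92 reads in every library, and the part of depth in missed calls was not tested.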
